A study of Mus musculus with 2 samples.

Results

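The genes of eicosanoid synthesis were followed across the cell types of the mouse liver. They are Alox5, Alox5ap, Lta4h, Ltc4s, Ptgs1, Ptgs2, Ptges and Hpgds, which encode enzymes and 1 helper protein of the pathway, and Ltb4r1, which encodes a receptor for one of its products. These 9 genes, out of 31053 in the deposited gene list, were taken by symbol, and all 9 were found. Their unique molecular identifier (UMI) counts, each standing for 1 captured transcript, were read over 10366 of the 11192 cell barcodes, those that reached 500 UMI and 200 genes with mitochondrial genes at no more than 10% of the UMI.

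The labels name 2 samples of immune cells from liver, each from mice aged 8 weeks and of the strain RedMUC298trTg. The Rcrin KO sample is from mice titled as a liver Rcrin conditional knockout, and the WT sample is from Rcrin flox mice, so floxed alleles and not wild-type ones are the control. The sources used here give neither the driver of the knockout nor the number of animals per sample, and no gene in the list carries the symbol Rcrin. Liver was digested with collagenase IV, cells were sorted and single-cell libraries were made with the 10x Genomics Chromium droplet system.

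All 3 files of the Rcrin KO sample (values, genes and barcodes) were exact copies of the files of the WT sample, so all 11192 barcodes were shared. The files therefore held 1 matrix of unknown genotype, no comparison of Rcrin KO with WT was made, and all values below describe 1 sample. Replicate error could not be estimated, and nothing was tested. Levels are counts-per-million values (CPM), the UMI of a gene scaled to a common total of UMI, pooled over the cells of a class and given with exact Poisson 95% intervals. Shares of cells carry exact Clopper-Pearson intervals, and ratios of CPM the exact conditional interval of 2 counts. All 3 kinds describe counting error alone, so variation between animals or cells is not in them.

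After removal of 351 doublets (3.39%), 10015 cells with a median of 4250 UMI remained. They formed 31 clusters, built without any of the 9 genes, and clusters were named "X-like" from lists of marker genes that hold none of the 9. The 13 classes with at least 30 cells ran from 2912 B-like cells to 44 basophil-like cells. Conventional dendritic-like cells were 1 cluster of 141 cells, matched to the list of type 1 conventional dendritic cells (cDC1). Not all were immune cells: 813 liver sinusoidal endothelial-like (LSEC-like) cells had all 12 endothelial markers in at least 25% of cells, and 14 hepatocyte-like and 12 cholangiocyte-like cells were also found. In all, 6 clusters with 555 cells stayed unnamed. Median depth ran from 2562.5 UMI in neutrophil-like to 13214 UMI in Kupffer-like and 20922 UMI in plasma-like cells, so shares of cells are also given with each cell thinned to 1000 UMI.

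Eicosanoids are lipid signals made from arachidonic acid that phospholipases and other lipases free from membranes. In the leukotriene branch, 5-lipoxygenase (Alox5), aided by its membrane partner FLAP (Alox5ap), makes leukotriene A4, which the hydrolase Lta4h turns into leukotriene B4, an attractant of neutrophils, and the synthase Ltc4s turns into leukotriene C4, a cysteinyl leukotriene. In the prostanoid branch, the cyclooxygenases COX-1 (Ptgs1) and the inducible COX-2 (Ptgs2) make prostaglandin H2, from which Ptges makes prostaglandin E2 and Hpgds prostaglandin D2. In the liver, Kupffer cells, the resident macrophages of the sinusoids, are known producers of prostanoids.

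No binding or methylation data accompany these counts, but some of the genes had like profiles over the classes. Promoter windows are printed for the 2 pairs with the highest correlation, Alox5 with Ptgs2 and Ltc4s with Ptgs1. Each holds 300 bases, from 250 before to 50 after the annotated start, and comes from RefSeq on GRCm38.p6, 5′ to 3′ on the strand of the gene. Alox5 lies at chr6:116461129-116461428 (minus strand), Ptgs2 at chr1:150099781-150100080 (plus strand), Ptgs1 at chr2:36230176-36230475 (plus strand) and Ltc4s at chr11:50238483-50238782 (minus strand). Capitals mark matches, on either strand, to GAGGAA (an ETS core), GGGCGG (a GC box), TTNNGCAA (a C/EBP motif) or TGACGT (the core of a cyclic AMP response element), which did not overlap each other here.
Alox5: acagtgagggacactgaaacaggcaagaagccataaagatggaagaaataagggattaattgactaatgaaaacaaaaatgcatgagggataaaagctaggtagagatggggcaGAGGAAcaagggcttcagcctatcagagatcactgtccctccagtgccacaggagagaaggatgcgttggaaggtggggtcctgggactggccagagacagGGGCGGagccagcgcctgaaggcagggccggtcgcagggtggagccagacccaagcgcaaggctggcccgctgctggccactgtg
Ptgs2: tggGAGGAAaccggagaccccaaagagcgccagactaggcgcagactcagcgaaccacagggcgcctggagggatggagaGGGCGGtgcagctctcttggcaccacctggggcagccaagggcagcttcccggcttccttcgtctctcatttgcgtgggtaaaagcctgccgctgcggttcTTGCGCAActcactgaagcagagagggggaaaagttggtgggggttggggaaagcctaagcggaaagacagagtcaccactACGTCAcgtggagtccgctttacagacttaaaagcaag
Ptgs1: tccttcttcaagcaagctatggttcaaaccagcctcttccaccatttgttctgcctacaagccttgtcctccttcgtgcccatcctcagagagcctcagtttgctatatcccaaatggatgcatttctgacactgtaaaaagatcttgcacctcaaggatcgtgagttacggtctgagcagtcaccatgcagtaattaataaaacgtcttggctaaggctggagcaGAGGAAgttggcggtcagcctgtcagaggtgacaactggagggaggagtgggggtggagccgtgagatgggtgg
Ltc4s: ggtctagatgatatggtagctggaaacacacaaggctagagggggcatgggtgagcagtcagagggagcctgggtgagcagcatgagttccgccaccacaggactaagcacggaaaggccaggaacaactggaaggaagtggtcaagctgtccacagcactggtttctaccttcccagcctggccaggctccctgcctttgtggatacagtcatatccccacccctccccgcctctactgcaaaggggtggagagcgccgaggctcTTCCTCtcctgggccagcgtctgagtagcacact
Windows were found for 8 of the 9 genes, with Alox5ap the exception. GAGGAA was in all 8 windows and in 28.3% of all 32851 windows of the same length. GGGCGG was in Alox5 and Ptgs2 of the 4 printed, against 35.7% of all windows, and TTNNGCAA (10.8% of all) and TGACGT (7.51% of all) were in Ptgs2 alone of the 4. TATAAA, found in 13.6% of all windows, was in none of the 8. A match describes the letters and is not evidence of a bound site.

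Leukotriene synthesis was read in its order of steps, starting with 5-lipoxygenase. Alox5 (chr6:116410077-116461178 on GRCm38, minus strand) was a gene of neutrophil-like and basophil-like cells. Its level was 117 CPM in neutrophil-like cells (306 UMI; 95% interval 105 to 131) and 91.0 CPM in basophil-like cells (21 UMI; 56.4 to 139). Nonclassical monocyte-like cells followed with 22 CPM (33 UMI; 15.1 to 30.9) and classical monocyte-like cells with 2.96 CPM (10 UMI; 1.42 to 5.44). The other 9 ranked classes were below 2 CPM, and LSEC-like, NK-like and ILC1-like cells had no Alox5 UMI, where 3 counts would be 0.458, 1.18 and 2.67 CPM.

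Neutrophil-like and basophil-like cells did not differ in Alox5 beyond counting error, with a ratio of 1.29 (0.83 to 2.11). Basophil-like cells were 4.14-fold above nonclassical monocyte-like cells (2.28 to 7.38), and these were 7.43-fold above classical monocyte-like cells (3.58 to 16.9). Among the cells, 26.1% of neutrophil-like, 34.1% of basophil-like and 10.3% of nonclassical monocyte-like cells had an Alox5 UMI, against 0.0442% of the T-like cells, whose median depth was 4847 UMI. Of all Alox5 UMI in kept cells, 77.5% came from the neutrophil-like class, which held 4.3% of all UMI.

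Alox5ap (chr5:149264767-149288153, plus strand) was spread far more widely over the myeloid classes than Alox5. It had 1615 CPM in neutrophil-like (1567 to 1665), 1530.3 CPM in basophil-like (1375 to 1699) and 1271 CPM in classical monocyte-like cells (1233 to 1309). Nonclassical monocyte-like cells had 833 CPM, conventional dendritic-like cells 719 CPM, plasmacytoid dendritic-like cells 587 CPM and Kupffer-like cells 208 CPM. All of the B-like, T-like, NK-like, ILC1-like, plasma-like and LSEC-like classes lay between 3.56 and 7.64 CPM. The neutrophil-like to basophil-like ratio was 1.06 (0.95 to 1.18), and each later step down to plasmacytoid dendritic-like cells had an interval above 1. The antisense gene Gm19719 overlaps the locus on the other strand, and the sources used here do not say whether the counting used the strand.

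**Figure D1:**
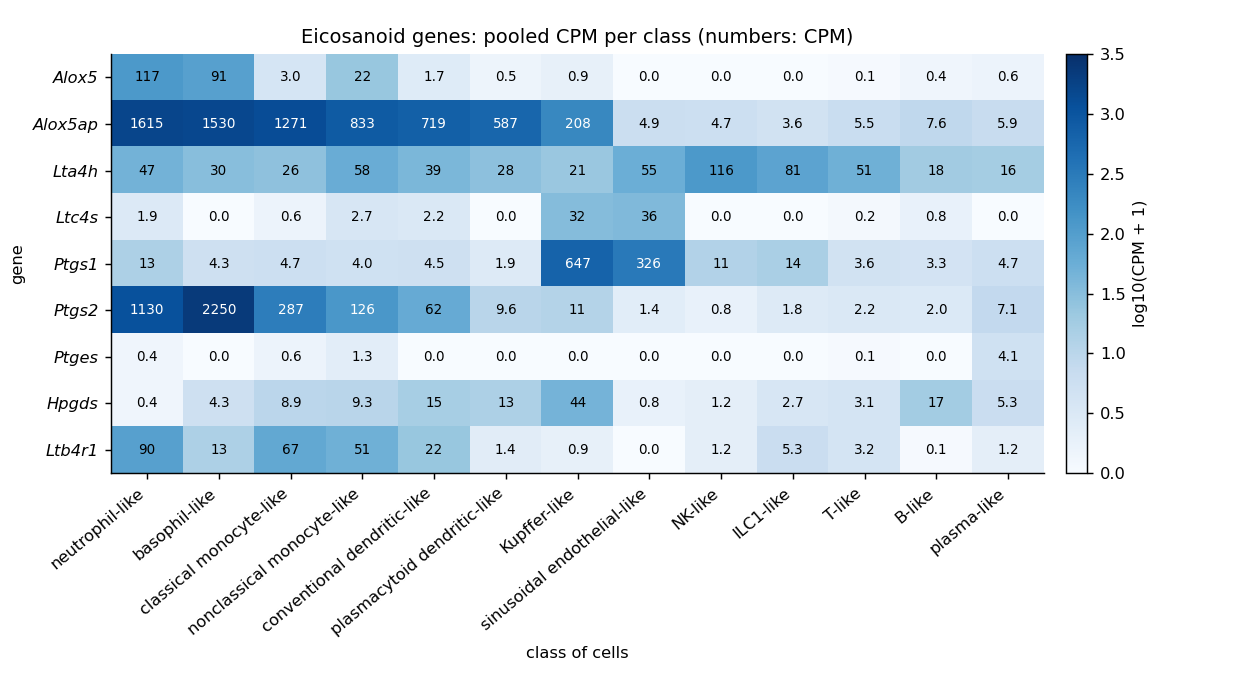
Heat map of the 9 genes (rows) over the 13 classes of at least 30 cells (columns), coloured by log10(CPM + 1), with the pooled CPM in each field. Alox5, Alox5ap, Ptgs2 and Ltb4r1 are darkest in the myeloid columns at the left, Ptgs1 and Ltc4s in Kupffer-like and sinusoidal endothelial-like cells, and Lta4h in NK-like cells at 116 CPM.

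Per cell, Alox5ap was found in 95.7% of neutrophil-like, 97.7% of basophil-like, 97.9% of classical monocyte-like and 96.2% of plasmacytoid dendritic-like cells, against 1.95% of T-like cells. The median cell held 4 UMI of Alox5ap in the neutrophil-like and 11 UMI in the classical monocyte-like class. Alox5 and Alox5ap were both found in 25.8% of neutrophil-like cells (232 of 900; 22.9 to 28.8%), 31.8% of basophil-like cells (14 of 44; 18.6 to 47.6%) and 9.93% of nonclassical monocyte-like cells (28 of 282; 6.70 to 14.0%). Of the 235 neutrophil-like cells with an Alox5 UMI, 98.7% also had Alox5ap. Thinned to 1000 UMI, the joint shares were 7.28, 4.55 and 1.06% in these 3 classes. Classical monocyte-like cells, nearly all with Alox5ap, had both genes in 2.11% (8 of 380), and the thinned share was 0.264%.

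**Figure D2:**
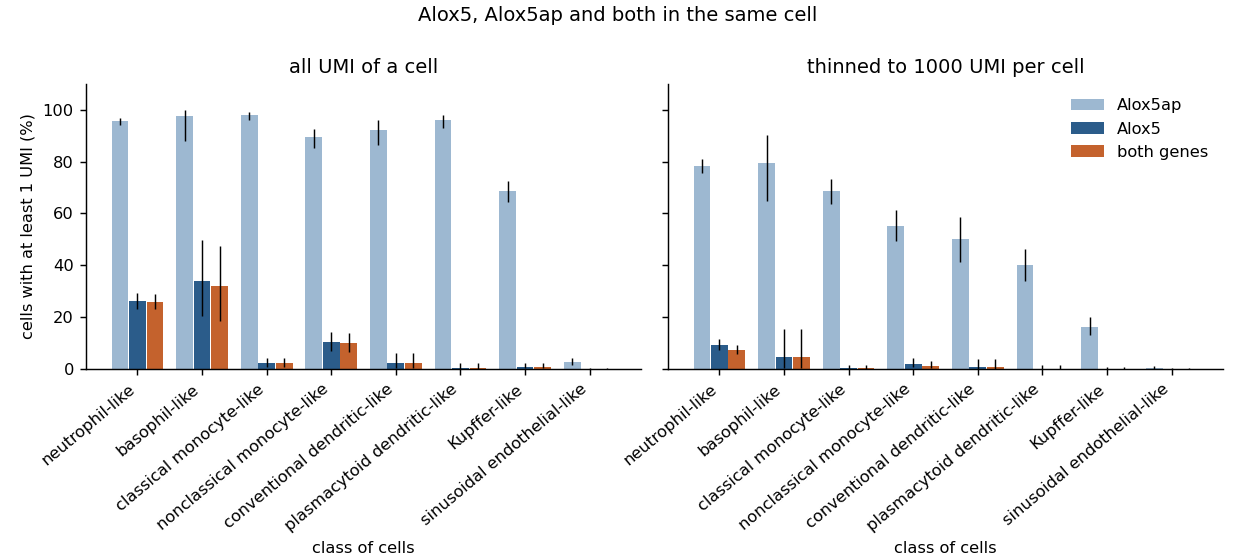
Shares of cells with at least 1 UMI (y axis, percent) of Alox5ap, Alox5 and both genes in 8 classes, with all UMI of a cell at the left and thinned to 1000 UMI per cell at the right. Bars are shares and lines exact 95% Clopper-Pearson intervals. Alox5ap was in 68.7% or more of the cells of the 7 myeloid and dendritic classes at full depth, whereas the joint share reached 25.8% in neutrophil-like and 31.8% in basophil-like cells.

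Lta4h (chr10:93453411-93484875, plus strand) had another distribution and was highest in the innate lymphoid classes. NK-like cells had 116 CPM (296 UMI; 103 to 130) and ILC1-like cells 81.0 CPM (91 UMI; 65.2 to 99.5), a ratio of 1.44 (1.13 to 1.84). ILC1-like cells were 1.40-fold above nonclassical monocyte-like cells (1.03 to 1.90), which had 57.9 CPM. Those, LSEC-like cells at 54.9 CPM, T-like cells at 51.3 CPM and neutrophil-like cells at 46.8 CPM had neighbouring ratios whose intervals included 1. The T-like clusters differed: cluster 16, led by Klra6, Klra5 and Klra7, had 92.5 CPM (126 UMI), and the others had at most 59.5 CPM. B-like cells had 17.6 CPM and Kupffer-like cells 21.5 CPM. The share of NK-like cells with a UMI was 36.1%, and 9.8% after thinning, against 1.9% of thinned B-like cells.

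The neutrophil-like class was not uniform in Lta4h. It held 3 clusters, of 794 cells (cluster 3), 73 cells (cluster 24, led by the secondary granule genes Ngp, Ltf and Camp) and 33 cells (cluster 29, led by Slfn4 and Ifit1). Lta4h had 193 CPM in cluster 24 (155 to 236), against 14.2 CPM in cluster 3 (9.52 to 20.4), a ratio of 13.6 (8.85 to 21.4). Cluster 24 thus gave 92 of the 122 Lta4h UMI of the class from 73 of its 900 cells. Alox5 did not differ in the same way, with 130 CPM in cluster 24 and 115 CPM in cluster 3 (ratio 1.13; 0.84 to 1.5), and neither did Alox5ap, with 1598 and 1620 CPM in these clusters. An Lta4h UMI was found in 45.2% of the cells of cluster 24, whose median depth was 6242 UMI, and in 3.27% of the cells of cluster 3, at 2493.5 UMI.

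Ltc4s (chr11:50236461-50238616, minus strand) was a gene of sinusoidal cells. LSEC-like cells had 35.6 CPM (233 UMI; 31.1 to 40.4) and Kupffer-like cells 32.5 CPM (213 UMI; 28.2 to 37.1), a ratio of 1.10 (0.91 to 1.33). Kupffer-like cells were 12.2-fold above the next class, nonclassical monocyte-like cells (4.69 to 45.1), which had 4 UMI in all. Neutrophil-like cells, with the highest Alox5, had 1.92 CPM of Ltc4s (5 UMI), and basophil-like cells had none, where 3 counts would be 13 CPM. An Ltc4s UMI was found in 22% of Kupffer-like and 18.2% of LSEC-like cells, against 0.0884% of T-like cells. The antisense gene Gm26542 overlaps this locus too.

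The receptor for leukotriene B4, Ltb4r1 (chr14:55765962-55768494, plus strand), was highest in neutrophil-like and monocyte-like cells. Its level was 89.7 CPM in neutrophil-like (234 UMI; 78.6 to 102), 67.4 CPM in classical monocyte-like (228 UMI; 58.9 to 76.7) and 51.3 CPM in nonclassical monocyte-like cells (77 UMI; 40.5 to 64.1). Neutrophil-like cells were 1.33-fold above classical monocyte-like cells (1.10 to 1.60), but as a mean over cells scaled one by one the log2 ratio was 0.04. Conventional dendritic-like cells had 21.7 CPM and basophil-like cells 13 CPM from 3 UMI. T-like cells had 3.22 CPM, Kupffer-like cells 0.914 CPM (6 UMI) and B-like cells 0.0967 CPM, and LSEC-like cells had no UMI.

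Within the neutrophil-like class, Ltb4r1 had 264 CPM in cluster 24 (126 UMI; 220 to 314), against 49.5 CPM in cluster 3 (101 UMI; 40.3 to 60.1), a ratio of 5.33 (4.07 to 7.0). Without cluster 24, a choice made after its values were seen, the neutrophil-like level was 50.7 CPM, and the log2 ratio to classical monocyte-like cells was -0.41 in place of 0.41. Among the 6 T-like clusters, 1 stood apart: cluster 15, led by Tnfrsf4, Ctla4 and Cd40lg, had 20.2 CPM (27 UMI; 13.3 to 29.4), and the other 5 had at most 2.15 CPM. The same cluster was highest of the 6 in Alox5ap, with 22.5 CPM (30 UMI), against at most 4.93 CPM in the others. It was also highest in Ptgs2, with 9.73 CPM (13 UMI), against at most 2.46 CPM. Much of this came from few cells: the T-like cell with the most Alox5ap held 17 UMI, and the one with the most Ptgs2 held 8 UMI. No other T-like cluster held as many UMI of either gene in all, so both counts lie in cluster 15. All 3 genes were high in myeloid classes, and whether RNA of myeloid cells entered this cluster was not tested.

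**Figure D3:**
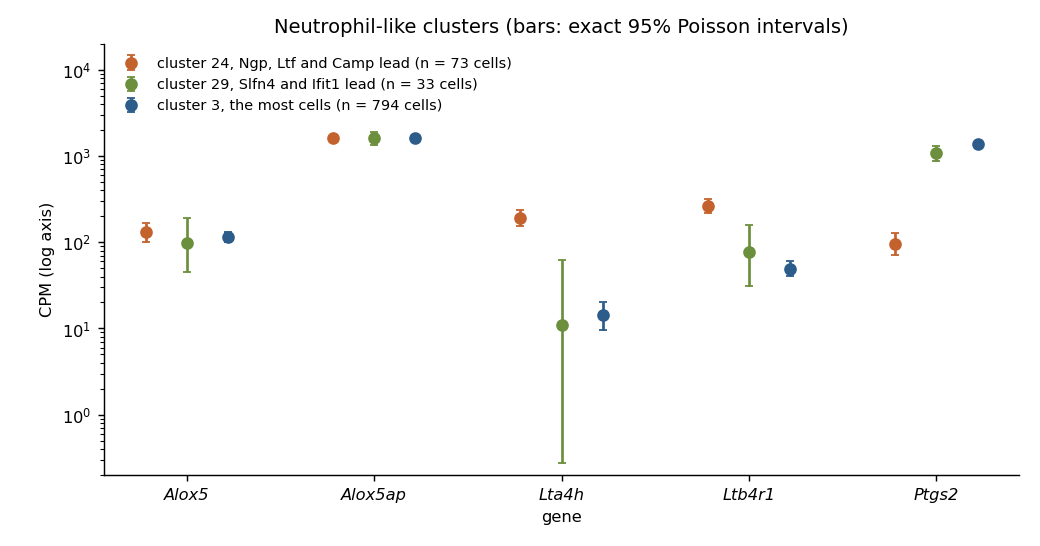
CPM on a log axis (y) of 5 genes (x) in the 3 neutrophil-like clusters, with exact 95% Poisson intervals as bars. Alox5 and Alox5ap lie side by side in all 3, Lta4h and Ltb4r1 are highest in cluster 24, at 193 and 264 CPM, and Ptgs2 is lowest there, at 96.4 CPM.

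In the prostanoid branch, the cyclooxygenases divided the classes between them. Ptgs1 (chr2:36230426-36252272, plus strand) had 647 CPM in Kupffer-like (4243 UMI; 627 to 666) and 326 CPM in LSEC-like cells (2137 UMI; 312 to 340), a ratio of 1.98 (1.88 to 2.09). LSEC-like cells were 22.9-fold above the next class, ILC1-like cells (14.1 to 40.1), at 14.2 CPM. Every other ranked class was at or below 12.7 CPM. A Ptgs1 UMI was found in 85.2% of Kupffer-like and 80.0% of LSEC-like cells, against 1.81% of T-like cells. Thinned to 1000 UMI, the shares were 45.9 and 26.1%, against 0.4%.

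Because Kupffer and endothelial cells lie side by side in the sinusoid, markers of each were read in the other class. All 12 Kupffer markers had UMI in LSEC-like cells, at a median of 0.543% of their Kupffer-like level, from 0.314% for Marco to 13.2% for Slc40a1. Ptgs1 in LSEC-like cells stood at 50.4% and Ltc4s at 110% of the Kupffer-like level, whereas Alox5ap stood at 2.35% and Hpgds at 1.73%. The summed CPM of the 12 Kupffer markers was 513 in LSEC-like cells, against 32223 in Kupffer-like cells. The 12 endothelial markers had a median of 2.80% of their LSEC-like level in Kupffer-like cells, from 2.1% for Ramp2 to 59.5% for Cdh5. The 8 platelet or megakaryocyte markers, of a lineage known for Ptgs1, summed to 52.7 CPM in Kupffer-like and 39.2 CPM in LSEC-like cells, with Gp9, Gp1bb and Treml1 at 0 in both. An unnamed cluster of 182 cells with markers of both types had 573 CPM of Ptgs1 and 29.7 CPM of Ltc4s.

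**Figure D4:**
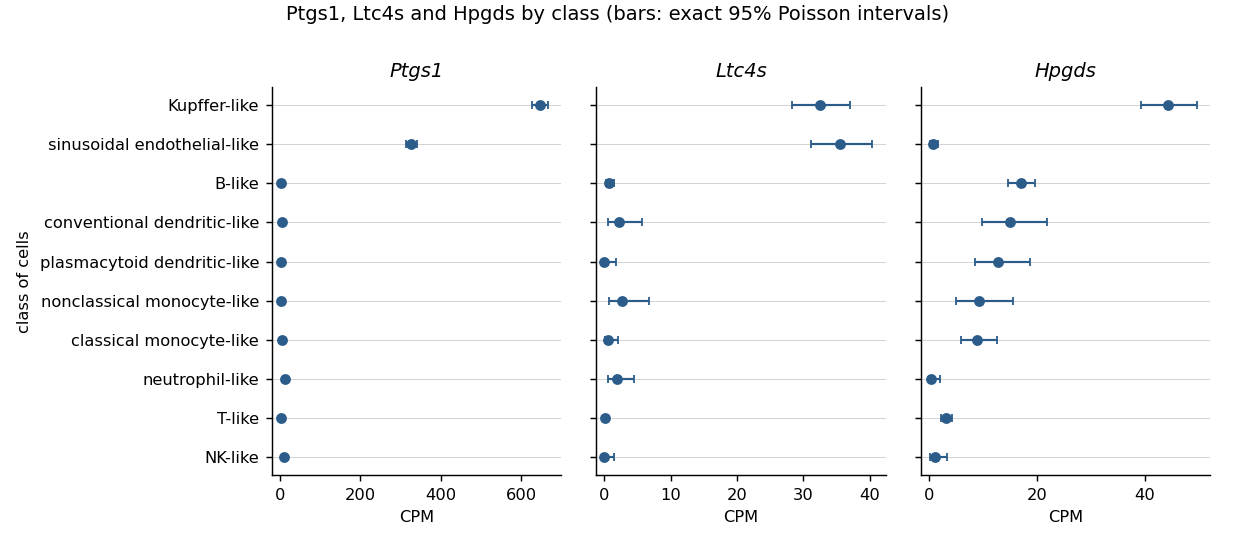
CPM (x axes, linear, a scale for each gene) of Ptgs1, Ltc4s and Hpgds in 10 classes (y axis), with exact 95% Poisson intervals as bars. Ptgs1 and Ltc4s are high in Kupffer-like and sinusoidal endothelial-like cells, and Hpgds is high in Kupffer-like cells at 44.2 CPM and near 0 in sinusoidal endothelial-like cells.

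The Kupffer-like class held 2 clusters, and the smaller (cluster 21, 137 cells) had a median of only 1285 UMI. Ptgs1 had 463 CPM in cluster 21 and 654 CPM in cluster 9, a ratio of 0.71 (0.58 to 0.85). Hpgds had 7.91 CPM (2 UMI) in cluster 21 and 45.6 CPM in cluster 9, a ratio of 0.17 (0.02 to 0.63). Alox5ap did not differ between them beyond counting error, at 245 and 207 CPM, and the Ltc4s interval, 0.13 to 1.24, also included 1.

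Ptgs2 (chr1:150100031-150108227, plus strand) was highest in basophil-like cells, with 2249.9 CPM (519 UMI; 2060.5 to 2452), and next in neutrophil-like cells, with 1129.8 CPM (2947 UMI; 1089 to 1171). The ratio was 1.99 (1.81 to 2.19), a log2 ratio of 0.99. With cells gated by marker UMI in place of clusters, the basophil-like level was 1368 CPM and the log2 ratio 0.41. Classical monocyte-like cells had 287 CPM, nonclassical monocyte-like cells 126 CPM and conventional dendritic-like cells 61.9 CPM, each step with an interval above 1. Kupffer-like cells had 11 CPM (72 UMI; 8.58 to 13.8) and LSEC-like cells 1.37 CPM (9 UMI).

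The 44 basophil-like cells, 0.439% of the kept cells, held 10.2% of all Ptgs2 UMI, and the 900 neutrophil-like cells 58.1%. The share of cells with a Ptgs2 UMI was 68.2% in each of these classes and 48.9% in classical monocyte-like cells, against 0.84% of T-like cells. Within classes Ptgs2 was uneven: the top 10% of cells held 41.1% of its UMI in neutrophil-like, 55.6% in classical monocyte-like and 98.9% in nonclassical monocyte-like cells. Within the neutrophil-like class, cluster 24 had 96.4 CPM (70.5 to 129), against 1374 CPM in cluster 3, a ratio of 0.07 (0.05 to 0.09), the opposite order to Lta4h and Ltb4r1.

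The neutrophil-like and basophil-like classes were told apart by their markers. Neutrophil markers in basophil-like cells had a median of 0.0461% of their neutrophil-like level, with Csf3r, Mmp9, Mmp8, Camp and Ly6g at 0 and Cxcr2 highest at 13.7%. There, Alox5ap stood at 94.7%, Alox5 at 77.6%, Ptgs2 at 199% and Ltb4r1 at 14.5% of the neutrophil-like level. In neutrophil-like cells 7 of the 10 basophil markers were at 0. All 8 mast cell markers were at 0 in basophil-like cells.

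Ptgs2 is an immediate early gene, and tissue digestion is known to induce such genes, so it was set beside 17 immediate early and dissociation genes, a list that does not hold it. Their summed CPM was 41205 in basophil-like, 19899 in neutrophil-like, 13386 in nonclassical monocyte-like and 9324 in classical monocyte-like cells. The nonclassical monocyte-like sum holds 1555 CPM of Nr4a1, which is also a marker used to name that class. The order of the list was not that of Ptgs2 in every class. Kupffer-like cells had 20357 CPM for the list and 11 CPM of Ptgs2, LSEC-like cells 10736 CPM for the list and 1.37 CPM of Ptgs2, and ILC1-like cells 7678 CPM for the list and 1.78 CPM of Ptgs2, whereas conventional dendritic-like cells had 7224 CPM for the list and 61.9 CPM of Ptgs2. The list genes with the highest levels were Egr1 (8445 CPM), Junb (7625 CPM) and Ier3 (7153 CPM), all in basophil-like cells. The part of the digestion in the Ptgs2 levels was not tested.

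**Figure D5:**
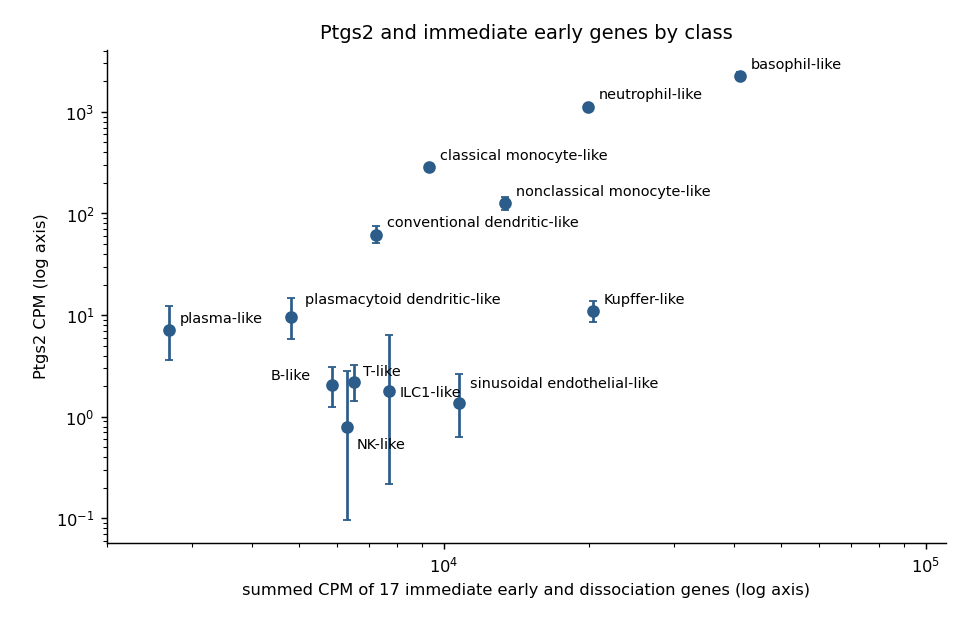
Ptgs2 CPM (y, log axis, exact 95% Poisson intervals) against the summed CPM of 17 immediate early and dissociation genes (x, log axis), 1 point per class. Basophil-like and neutrophil-like cells lie at the upper right, and Kupffer-like cells lie as far right as neutrophil-like cells at 11 CPM of Ptgs2.

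Hpgds (chr6:65117293-65144908, minus strand) peaked in Kupffer-like cells with 44.2 CPM (290 UMI; 39.2 to 49.6), and B-like cells came second at 17 CPM (176 UMI; 14.6 to 19.7), a ratio of 2.60 (2.15 to 3.15). Conventional dendritic-like cells at 15.1 CPM and plasmacytoid dendritic-like cells at 12.9 CPM did not differ from B-like cells or each other beyond counting error. B-like cells were 5.43-fold above T-like cells (3.79 to 7.97), at 3.13 CPM, and LSEC-like cells had 0.763 CPM. An Hpgds UMI was found in 30.8% of Kupffer-like and 4.74% of B-like cells, against 0.615% of LSEC-like cells at a median of 7323 UMI, and in 4.4, 1.5 and 0.1% of these after thinning. The 3 B-like clusters, at 17.9, 16.9 and 8.79 CPM, had ratios whose intervals included 1.

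Ptges (chr2:30889471-30929863, minus strand) was hardly detected. It had 15 UMI in 13 of the 10366 barcodes, under the minimum of 100 UMI that a gene needed for fold counts, and 7 of them fell in plasma-like cells (4.12 CPM; 1.66 to 8.49). Kupffer-like and LSEC-like cells had none, where 3 counts would be 0.457 and 0.458 CPM. The plasma-like level was 30.4-fold above that of all other cells (9.38 to 95.9), although no classes next to each other in rank differed beyond counting error.

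The 8 genes with at least 100 UMI were then counted by class against the remaining kept cells, after 1 CPM was added to each level, beside the same count over all 11940 genes with that minimum. In neutrophil-like cells 4 of the 8, Alox5, Alox5ap, Ptgs2 and Ltb4r1, were at least 2-fold higher, against 7.85% of all genes. In basophil-like cells these were Alox5, Alox5ap and Ptgs2 (3 of 8, against 6.39%), in classical monocyte-like cells Alox5ap, Ptgs2 and Ltb4r1 (3 of 8, against 6.26%) and in nonclassical monocyte-like cells Alox5, Alox5ap and Ltb4r1 (3 of 8, against 6.08%). Kupffer-like cells had Ltc4s, Ptgs1 and Hpgds (3 of 8, against 10.3%) and LSEC-like cells Ltc4s and Ptgs1 (2 of 8, against 19.6%). Lta4h was the 1 gene past 2-fold in NK-like cells (5.33% of all genes), and Alox5ap in plasmacytoid dendritic-like (7.46%) and conventional dendritic-like cells (4.61%).

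None of the 8 was 2-fold higher in B-like (6.3% of all genes), T-like (5.45%), ILC1-like (6.21%) or plasma-like cells (4.89%). In ILC1-like cells Lta4h lay just under the threshold, with a log2 fold of 0.97, and the count was 1 in 6 of 15 other settings. The median log2 fold of the 8 was 1.62 in neutrophil-like cells, against -1.55 over all genes, and 0.54 in nonclassical monocyte-like cells, against -0.47. It was also above that of all genes in basophil-like (-0.16, against -1.13) and conventional dendritic-like cells (-0.27, against -0.39). In the other classes it was below, as in Kupffer-like (-0.65, against -0.27), LSEC-like (-3.07, against 0.04) and B-like cells (-3.34, against -0.25).

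In the other direction, Ltc4s, Ptgs1 and Hpgds were at least 2-fold lower in both neutrophil-like (3 of 8, against 64.4% of all genes) and basophil-like cells (3 of 8, against 53.1%). In basophil-like cells Ltc4s had no UMI and Hpgds 1 UMI. The intervals of their ratios to all other cells, 0 to 1.57 and 0.0088 to 1.94, included 1, so these 2 did not differ beyond counting error. Ltc4s and Ptgs1 were lower in classical monocyte-like (2 of 8, against 29.1%) and nonclassical monocyte-like cells (2 of 8, against 31.3%). Kupffer-like cells were lower in Alox5, Lta4h, Ptgs2 and Ltb4r1 (4 of 8, against 23.4%), and LSEC-like cells in Alox5, Alox5ap, Ptgs2, Hpgds and Ltb4r1 (5 of 8, against 21.5%). In each of the lymphoid classes 7 of the 8 were lower: all but Hpgds in B-like cells (against 28.9%), and all but Lta4h in ILC1-like (24.7%), NK-like (25.2%) and T-like cells (26.0%). Plasma-like cells were lower in all 8 (against 47.6%), plasmacytoid dendritic-like cells in 5 (26.7%) and conventional dendritic-like cells in 3 (26.8%). No more than 8 genes enter any of these counts, and no test was made of them.

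Across the 13 classes, which share 1 library, Pearson correlations of log2(CPM + 1) were highest for Alox5 with Ptgs2 (0.92), Ltc4s with Ptgs1 (0.88) and Alox5ap with Ptgs2 (0.88). The lowest was that of Hpgds with Lta4h (-0.64), and Ptgs1 with Ptgs2 had -0.25. Of all genes with at least 100 UMI, those most like Alox5 were Cxcr2 (0.96), a chemokine receptor of neutrophils, and Gm28192 (0.95). Csf2rb, the shared subunit of several cytokine receptors (0.97), and Gm46224 (0.95) were most like Alox5ap. Ccr1 (0.96), a chemokine receptor, and Clec4e (0.94), a lectin receptor, were most like Ptgs2, and Gpr141 (0.93) and Slc16a3 (0.91), a lactate transporter, most like Ltb4r1. Trim47 was first for both Ltc4s (0.96) and Ptgs1 (0.95), followed by Zfp217 (0.96) and Dysf (0.94). Rgs3 (0.85) and Bhlhe40 (0.84) were most like Lta4h, and Ly86 (0.90) and H2-DMa (0.89) most like Hpgds.

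Other genes of the pathway were read from lists of its steps. In the list for the release of arachidonic acid, 9 of 16 genes had at least 100 UMI. Of these, 4 were 2-fold higher in Kupffer-like cells (against 10.3% of all genes) and 3 in nonclassical monocyte-like cells (6.08%). The count was 2 in neutrophil-like (7.85%), classical monocyte-like (6.26%), LSEC-like (19.6%) and plasma-like cells (4.89%). The 2 in neutrophil-like cells were Pla2g7 and Lpcat2, which belong to the turnover of platelet-activating factor and do not free arachidonic acid. Each was past 2-fold in 3 classes, so they enter other counts too. Lpcat2 is among the 4 in Kupffer-like cells (114 CPM), and Pla2g7 among the 2 in classical monocyte-like cells (226 CPM). Pla2g7, a phospholipase that breaks down platelet-activating factor, had 754 CPM in neutrophil-like cells, 3.34-fold above classical monocyte-like cells (3.07 to 3.64). Mgll, which frees arachidonic acid from the lipid 2-arachidonoylglycerol, had 332 CPM in LSEC-like cells, 26.2-fold above the next class, neutrophil-like cells (18.6 to 38.2). Pla2g16, another phospholipase, had 214 CPM in ILC1-like and 145 CPM in NK-like cells. Pla2g4a, the cytosolic phospholipase that supplies arachidonic acid, was chosen after its values were seen, and had 144 CPM in Kupffer-like cells, 7.87-fold above classical monocyte-like cells (6.09 to 10.4).

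Of the other synthesis enzymes, 11 of 18 had at least 100 UMI. Of these, 4 were at 2-fold or more in Kupffer-like (against 10.3% of all genes), 3 in LSEC-like (19.6%) and 0 in neutrophil-like cells (7.85%). Ptges3, a cytosolic prostaglandin E synthase and cochaperone, was at 224 CPM in conventional dendritic-like and 217 CPM in ILC1-like cells, which did not differ beyond counting error. Akr1b3 had 136 CPM in Kupffer-like and 115 CPM in T-like cells. Alox15, the 12/15-lipoxygenase, had 31 UMI in all, of which 28 lay in the 44 basophil-like cells (121 CPM; 80.7 to 175). Tbxas1 (thromboxane synthase) and Ptgis (prostacyclin synthase), chosen after their values were seen, had 114 and 58.7 CPM in Kupffer-like cells, 4.74-fold (3.48 to 6.61) and 24.9-fold (9.65 to 91.9) above the next classes.

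Genes of breakdown and transport followed, 11 of 15 with at least 100 UMI. Of these, 3 were 2-fold higher in Kupffer-like cells (against 10.3% of all genes). The count was 2 in LSEC-like (19.6%), neutrophil-like (7.85%) and basophil-like cells (6.39%). Hpgd, the dehydrogenase that inactivates prostaglandins, had 1381 CPM in Kupffer-like cells, 2.54-fold above nonclassical monocyte-like cells (2.36 to 2.73). Slco2a1, the transporter that takes prostaglandins into cells, had 393 CPM in LSEC-like and 24.5 CPM in Kupffer-like cells. Cyp4f18, which oxidises leukotriene B4 in mouse neutrophils, had 611 CPM in basophil-like and 526 CPM in neutrophil-like cells, a ratio of 1.16 (0.97 to 1.38).

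Among 16 other receptors, 9 had at least 100 UMI. Of these, 4 were 2-fold higher in Kupffer-like (against 10.3% of all genes), 3 in neutrophil-like (7.85%) and 3 in conventional dendritic-like cells (4.61%). Ptger4, a prostaglandin E2 receptor, had 142 CPM in conventional dendritic-like and 99.0 CPM in plasmacytoid dendritic-like cells, a ratio of 1.43 (1.19 to 1.73). Fpr2, a receptor for formyl peptides and lipoxin A4, had 165 CPM in neutrophil-like and 75.6 CPM in Kupffer-like cells. Cmklr1, a receptor for chemerin and resolvin E1, had 73.4 CPM in Kupffer-like and 35.8 CPM in NK-like cells. Over the 4 lists, 15 of 40 genes were 2-fold higher in Kupffer-like cells, against 10.3% of all genes, 8 of 40 in LSEC-like cells, against 19.6%, and 7 of 40 in neutrophil-like cells, against 7.85%. These 7 include Pla2g7 and Lpcat2, and the 15 in Kupffer-like cells include Lpcat2.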

How the data were processed

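Single-cell RNA sequencing of liver cells gave 1 matrix, deposited under both samples. The deposited values are UMI counts per gene and barcode, whole numbers with no normalization, as their values show. The submitters' processing notes name mm10, STAR, Cell Ranger 2.1.1 and, apart from these, Seurat 2.3.4, with no order of use. Per the file headers, software version 3.0.0 wrote the matrix, and no source used here gives the strand setting. The matrix held 67037274 UMI, with 502 to 93990 per barcode.

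The 9 genes, the lists of pathway genes and markers, and the comparisons were chosen with earlier results of these data known. Doublets among the barcodes past the limits were called with Scrublet and removed. After each cell was scaled to 10000 UMI and its values logged, Leiden clusters (resolution 1.0, 15 neighbours) were built on 30 principal components of 2000 variable genes, from which the 9 and the pathway genes were barred (Python 3.11.15, scanpy 1.11.5, numpy 2.4.6, scipy 1.17.1, igraph 0.11.9). A cluster took the marker list with the highest mean log2 fold if 3 or more markers were each found in 25% of its cells and the mean fold reached 1. Clusters that matched a second list or were led by markers of another stayed unnamed. So did shallow clusters with none of their own markers among their leading genes. Cluster 21, at a median of 1285 UMI, had Kupffer markers such as Marco among its leading genes and kept its name. The 2 conventional dendritic lists were merged into 1 class, which held 1 cluster, matched to the cDC1 list and led by Xcr1 and Cd209a. The mast cell list was merged into basophil. Free RNA in empty droplets was not measured, so shares are given beside a class that should lack the gene. The exception is Lta4h, set beside B-like cells, whose 17.6 CPM (182 UMI) are no measure of free RNA.

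All 9 genes are named, as are, of each pathway list, the 3 genes with the highest level in a class of at least 30 cells, and the 2 genes most like each of the 8 genes with at least 100 UMI. Dpep2 and the marker Ahsp had no unique row. Gene positions are those of GENCODE M21 on GRCm38, the assembly called mm10 in the notes. The interval and ratio code was tested on simulated data.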

Additional observations from a re-analysis of the deposited data

How the results depend on the processing

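Of 477 values under 16 other settings, 419 stayed within counting error of the reported value, or within 1.5 times for counts, 55 moved and 3 reversed. Of the 8 genes with at least 100 UMI, 7 or 8 kept their highest class under each setting. The setting without the neutrophil-like cluster led by Ngp was chosen after seeing the data, and it turned the log2 ratio of Ltb4r1 between neutrophil-like and classical monocyte-like cells to -0.41. With at most 5% mitochondrial UMI the log2 ratio of Ltc4s between LSEC-like and Kupffer-like cells was -0.050, and with haemoglobin, hepatocyte, mitochondrial and ribosomal protein genes left out of the CPM total that of Alox5ap between neutrophil-like and basophil-like cells was -0.12. The reported intervals of these last 2 ratios include 1. With at most 5% mitochondrial UMI, 0 genes were 2-fold higher in plasmacytoid dendritic-like, 1 in ILC1-like and 0 in conventional dendritic-like cells, and 29.4% of neutrophil-like cells had both Alox5 and Alox5ap. That limit also changed the cells compared against. It left 594 B-like cells in place of 2912, 141 Kupffer-like in place of 533 and 62 plasmacytoid dendritic-like in place of 262. Classical monocyte-like cells numbered 359 in place of 380. In ILC1-like cells the count was 1 at resolution 2.0, with more variable genes, as a mean over cells scaled one by one, thinned to 1000 UMI, and without the Ngp-led cluster. In these last 3 settings the count for conventional dendritic-like cells was 2, and that for B-like cells was 1 as a mean over scaled cells. Thinned to 1000 UMI, it was 0 in plasmacytoid dendritic-like cells, and the joint shares of Alox5 and Alox5ap were 7.28, 4.55 and 1.06% in neutrophil-like, basophil-like and nonclassical monocyte-like cells. At 4-fold the counts were 1 in LSEC-like, 0 in NK-like, 1 in nonclassical monocyte-like, 0 in plasmacytoid dendritic-like and 0 in conventional dendritic-like cells, as a higher fold admits fewer genes. For the other moved values the cause was not tested. With cells gated by marker UMI in place of clusters, Ptgs2 in basophil-like cells was 1368 CPM. No paired analysis was possible because no result comes from a test between samples. The 44 basophil-like cells and the 15 UMI of Ptges set the widest intervals.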

Other observations

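The clusters that stayed unnamed held several of the genes at high levels. A cluster of 41 cells led by Il17a had 132 CPM of Ltb4r1 (39 UMI; 93.6 to 180) in 51.2% of its cells, a level above those of the named classes. It had 40.5 CPM of Ptgs2 (12 UMI), 3.37 CPM of Alox5ap (1 UMI) and no Alox5. A cluster of 38 cells led by Angpt1 and Mpo, with Prtn3 and Cd34 among its leading genes, had 195 CPM of Alox5ap (107 UMI; 160 to 236), 117 CPM of Ptgs2 (64 UMI), 96.8 CPM of Lta4h (53 UMI) and 11 CPM of Alox5 (6 UMI). All 6 of these Alox5 UMI came from 2.63% of the cells, which is 1 of 38.

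A cluster of 145 cells led by cell cycle genes had 69.7 CPM of Lta4h, with a UMI in 51.7% of its cells, 116 CPM of Alox5ap and 15 CPM of Ltb4r1. A cluster of 84 cells with endothelial markers and a median of 1110 UMI had 154 CPM of Ptgs1 (16 UMI; 88.2 to 251). These clusters were chosen after their values were seen. In basophil-like cells Ptger3, a receptor for prostaglandin E2, had 65.0 CPM (15 of its 30 UMI), and Cysltr2, a receptor for cysteinyl leukotrienes, reached 58.8 CPM in ILC1-like cells, its highest level, also chosen after their values were seen.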
